A study of Mus musculus with 33 samples.

Results

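The collagen genes of mouse were followed through the directed differentiation of retinal progenitor cells towards cones or rods. Every gene whose symbol is Col, a number, the letter a and a number was taken, which gave 44 of the 47729 genes in the count tables. By the type of collagen they encode, 11 are fibrillar (Col1a1, Col1a2, Col2a1, Col3a1, Col5a1, Col5a2, Col5a3, Col11a1, Col11a2, Col24a1 and Col27a1) and 8 belong to basement membranes (Col4a1 to Col4a6, Col15a1 and Col18a1). The other 25 are fibril-associated (Col9a1, Col9a2, Col9a3, Col12a1, Col14a1, Col16a1, Col19a1, Col20a1 and Col22a1), form the beaded filaments of type VI (Col6a1 to Col6a6), form short-chain networks (Col8a1, Col8a2 and Col10a1), span the membrane (Col13a1, Col17a1, Col23a1 and Col25a1), or are of remaining kinds (Col7a1, Col26a1 and Col28a1).

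RNA came from C57BL/6J cells labelled as retinal progenitors of embryonic day 14 retina, 3 libraries for each of 11 groups. At day 0 the cells were untreated, primed towards cones with COCO protein, which is secreted and blocks Wnt, BMP and TGF-beta ligands, or primed towards rods with taurine and retinoic acid. Cone and rod induction with the same agents were sampled at days 5, 12, 21 and 35, with no untreated cells after day 0. All groups share the strain and the starting tissue, nothing in the labels says that replicates were separate cultures or animals, and p-values then measure only the spread between these libraries, which may be technical.

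Collagens are secreted or membrane proteins of 3 chains wound into a helix, in which glycine recurs at every turn of the repeat. Fibrillar collagens assemble into cross-striated fibrils, and type II with types V, IX and XI makes the fibrils of the vitreous. Type IV chains form the sheet of basement membranes such as the inner limiting membrane of the retina and the walls of retinal vessels, where types XV and XVIII lie beside them. Fibril-associated collagens sit on fibril surfaces, and their helices are broken by short stretches without the glycine repeat.

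The fibrillar class can be told from the rest by the glycine repeat of its genes, whereas the basement membrane and other types overlap in it. The lines that follow show 1 helix exon from each of 8 members that lead the results, chosen to set unbroken against broken repeats, 5′ to 3′ on the coding strand, with the in-frame glycine codons of the repeat in capitals. The first 4 are fibrillar exons of 54 bases, which is 6 glycine triplets, and hold no break. The exons of Col4a1, Col4a2, Col18a1 and Col9a1 each hold 1 break. All were read from GENCODE M21 transcripts on GRCm38.
Col1a1 exon 8: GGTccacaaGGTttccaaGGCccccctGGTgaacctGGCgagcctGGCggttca
Col1a2 exon 8: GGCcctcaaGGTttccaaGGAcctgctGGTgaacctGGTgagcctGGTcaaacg
Col2a1 exon 6: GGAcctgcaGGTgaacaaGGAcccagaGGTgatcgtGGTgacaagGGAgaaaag
Col11a1 exon 15: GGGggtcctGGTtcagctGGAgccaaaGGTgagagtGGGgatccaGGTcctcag
Col4a1 exon 12: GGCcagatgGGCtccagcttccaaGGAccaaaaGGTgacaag
Col4a2 exon 12: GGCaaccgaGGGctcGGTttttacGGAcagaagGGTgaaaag
Col18a1 exon 33: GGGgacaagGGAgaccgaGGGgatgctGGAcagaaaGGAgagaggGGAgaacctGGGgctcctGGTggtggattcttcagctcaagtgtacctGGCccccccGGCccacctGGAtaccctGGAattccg
Col9a1 exon 13: GGCcgtGGTattccaGGAccccct
Col1a1 exon 8 lies at chr11:94939904-94939957 (plus strand), Col1a2 exon 8 at chr6:4515481-4515534 (plus), Col2a1 exon 6 at chr15:97998545-97998598 (minus) and Col11a1 exon 15 at chr3:114108281-114108334 (plus). Col4a1 exon 12 lies at chr8:11242173-11242214 (minus), Col4a2 exon 12 at chr8:11406813-11406854 (plus), Col18a1 exon 33 at chr10:77059895-77060023 (minus) and Col9a1 exon 13 at chr1:24204658-24204681 (plus).

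Over the whole coding sequence, the longest run of glycine triplets without a break was 216 to 344 triplets in the 11 fibrillar genes (median 338). It was 30 to 66 triplets in the 8 basement membrane genes (median 41) and 23 to 113 triplets in the other 25 (median 52). The helix was split into 2 to 4 separate runs of at least 4 triplets in fibrillar genes, 12 to 27 in basement membrane genes and 2 to 22 in the others. Col9a1, Col9a2, Col9a3 and Col22a1 had the longest unbroken run outside the fibrillar class, at 113 triplets each. Among helix exons, 58% of 521 in fibrillar genes were exactly 54 bases long, against 5.62% of 249 in basement membrane genes and 26.7% of 536 in the others. These figures are of the reference genes and carry no measurement of the cells.

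**Figure D1:**
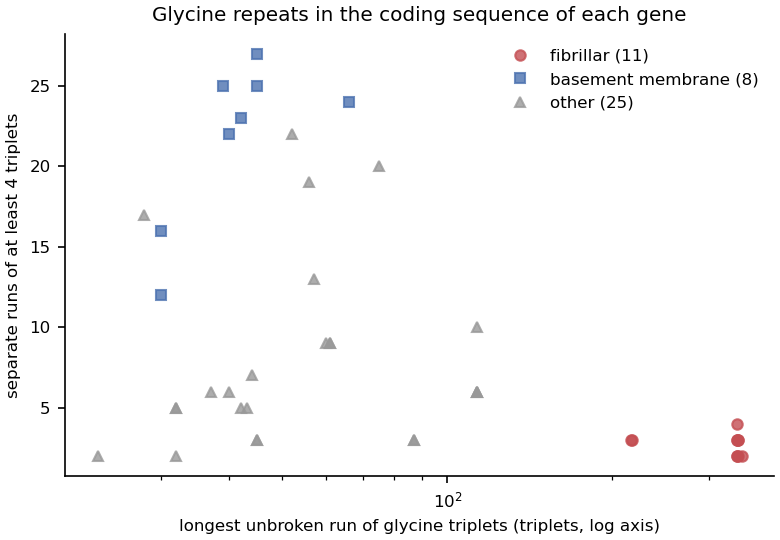
Each point is 1 of the 44 genes, placed by its longest unbroken run of glycine triplets (x axis, triplets, log scale) and the number of separate runs of at least 4 triplets in its coding sequence (y axis). The 11 fibrillar genes lie apart at 216 triplets or more. The 8 basement membrane genes lie at 66 or fewer with 12 to 27 runs, as do Col16a1, Col17a1, Col19a1 and Col28a1 of the other types.

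Libraries held 7511837 to 19166442 counts in genes (median 12985662). Levels are given as CPM, gene counts scaled to a common depth with TMM library scaling, and a library with 0 counts allows up to 3 counts, 0.174 to 0.407 CPM across the libraries, which covers counting error only. Differences are log2 fold changes with their standard error from edgeR's quasi-likelihood test. A difference was called where p, adjusted by Benjamini-Hochberg over 18150 genes, was under 0.05. Of the 44 collagens 42 were tested, and the low counts of Col10a1 and Col6a6 kept them out. The 10 retinal progenitor markers summed to 973 to 2041 CPM, and none was at 0 in all libraries of a group. The deposited TPM values follow the counts poorly (Spearman's rho 0.339 to 0.459 over genes with at least 50 counts in a library, a description across genes that are not independent), and under them 32 of the 154 called member differences given here kept their call. In bulk RNA, fewer cells of a type and less RNA per cell cannot be told apart. One cone library, day 35 replicate 2, had lower fibrillar and type VI levels than its 2 partners, and results at that day are given beside it.

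Summed collagen RNA was higher at each later day shown here than in untreated cells, and in both arms. The 44 members together counted 631, 444 and 531 CPM in untreated cells. Cone priming gave 520.4, 739.5 and 515 CPM, which overlapped the untreated libraries, while the rod-primed libraries, at 804, 856 and 1452 CPM, were above all 3 untreated ones. At day 35 the sums were 10473, 5948 and 11154 CPM in cone culture and 5527, 6158 and 5472 CPM in rod culture. As a share of gene counts that is 0.0487 to 0.0657% in untreated cells, 0.497 to 1.02% in cone culture and 0.442 to 0.544% in rod culture. Cone replicate 2 lay among the rod libraries at day 35, and replicates 1 and 3 were above all of them.

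The classes differed in where the excess lay. Fibrillar genes summed to 4228, 1756 and 5118 CPM in cone culture at day 35 and to 1311, 1727 and 1214 CPM in rod culture, so replicate 2 of the cone group lay just above the highest rod library. Basement membrane genes summed to 4066, 2735 and 3542 CPM in cone culture at day 35 and 2129, 2839.8 and 2404 CPM in rod culture, where cone replicate 2 was below the highest rod library. At day 12 the same 8 genes summed to 2363, 2026 and 2905 CPM in cone culture and 1672, 672 and 1266 CPM in rod culture, without overlap, and rod replicate 2 was the lowest. The other 25 genes summed to 2179.7, 1457 and 2494 CPM and 2088, 1591 and 1854 CPM at day 35 in cone and rod culture, and these overlapped. Sums were not tested, since the most abundant members carry them.

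**Figure D2:**
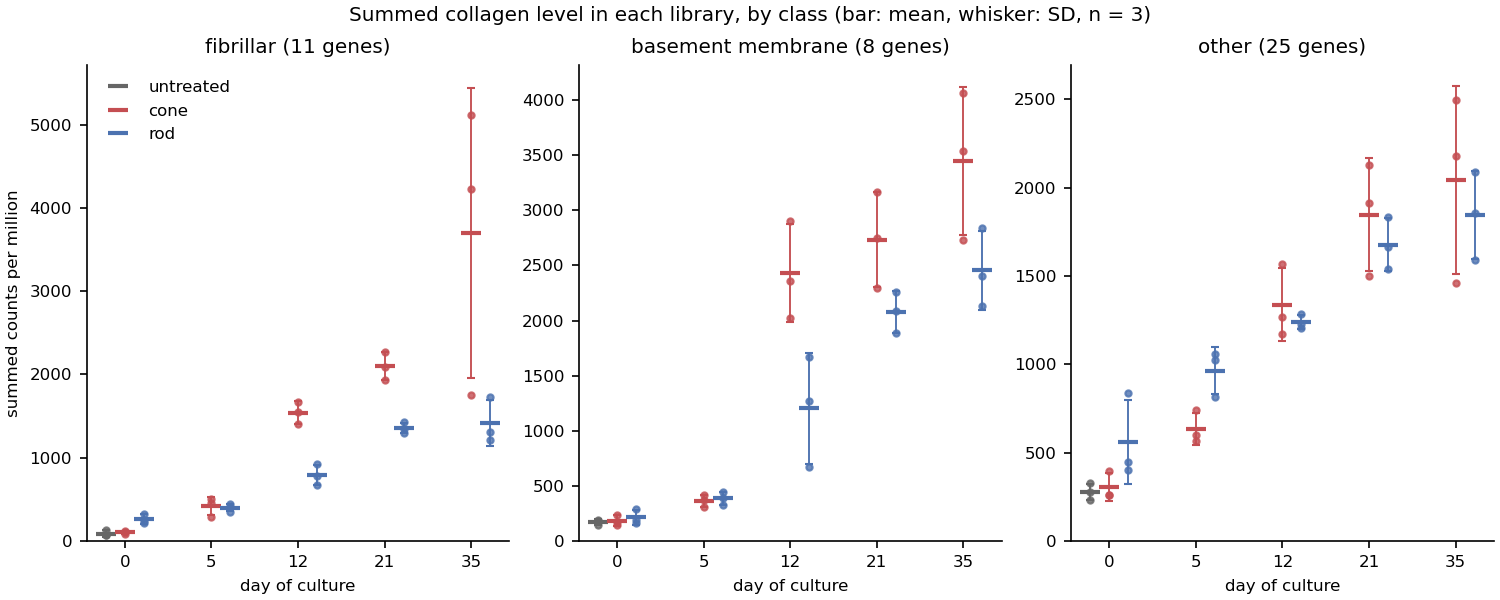
Summed level of each class (y axis, CPM) against day of culture (x axis), 1 point a library, with untreated, cone and rod groups in separate colours, the mean as a bar and the SD as a whisker (n = 3). Fibrillar sums reach 4228 and 5118 CPM in 2 cone libraries at day 35 while cone replicate 2 stands at 1756 CPM, near the rod libraries.

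At day 0 cone priming left no collagen gene called. Of 42 members 0 were called against untreated cells, as were 0% of all genes tested in either direction (0% higher, 0% lower). At an unadjusted p under 0.05, edgeR's test passed 1 member and 200 of the 18150 genes, and DESeq2, voom and the replicate block fits also called 0 members.

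After rod priming Col18a1, Col11a1, Col2a1 and Col9a1 were among the members with higher counts, while no type IV chain was called. Against untreated cells 8 of 42 members (19.1%) were called, 7 higher and 1 lower, where 10.3% of all genes tested were called in this comparison, 6.71% higher and 3.56% lower. They were Col18a1, Col11a1, Col2a1, Col9a1, Col9a3, Col12a1 and Col13a1, which rose, and Col6a1, which fell. By class these were 2 of 11 fibrillar, 1 of 8 basement membrane and 5 of 23 other genes, with median log2 differences of 1.06, 0.06 and 0, against 0 over all genes. Col9a3, a chain of type IX, rose by 1.41 ± 0.40, adjusted p = 0.0244. Col6a1, an alpha chain of type VI, counted 83.5, 72.8 and 80.2 CPM in untreated cells and 27.3, 22.6 and 20.3 CPM after rod priming, with no overlap, and its difference was -1.76 ± 0.56 (adjusted p = 0.0438). Col13a1, a membrane-spanning collagen, had 1 count in the 3 untreated libraries together, and the rod-primed libraries counted 33.0 (95% interval 5.40 to 1355) times as much per unit of depth, with groups that overlapped. Single libraries left out in turn took the count to 4 (without untreated replicate 2, untreated replicate 3 or rod primed replicate 3) or 5 (without rod primed replicate 1). Col18a1, Col11a1, Col2a1 and Col9a1 stayed called each time, while the highest adjusted p was 0.167 for Col6a1, 0.259 for Col9a3, 0.147 for Col12a1 and 0.0843 for Col13a1.

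Set directly against rod-primed cells, cone-primed cells had 4 members called (9.52%), all lower, where 7.27% of all genes tested were called in this comparison, 2.5% higher and 4.77% lower. The share in either direction is near that of all genes. They were Col18a1 (-3.16 ± 0.37, adjusted p = 1.73e-06), Col9a1 (-1.87 ± 0.34, adjusted p = 0.000759), Col2a1 (-1.75 ± 0.37, adjusted p = 0.00341) and Col11a1 (-1.75 ± 0.43, adjusted p = 0.0112). Groups did not overlap for any of the 4. How often groups overlap among all called genes was not counted, here or at later days. This comparison shares its rod-primed libraries with the one above, so both see the same rod values. Rod primed replicate 3 was the highest rod library for Col11a1, and without it the difference was no longer called (adjusted p = 0.297), nor was it without cone primed replicate 3. Several marker sums also set rod-primed cells apart. The 8-gene Müller glia sum was 539, 463 and 437 CPM in untreated, 529.8, 580.3 and 451 CPM in cone-primed and 1214, 1112 and 1396 CPM in rod-primed cells. Rod-primed retinal progenitor sums were 1633 to 2041 CPM, against 1217 to 1345 CPM untreated and 1179 to 1407 CPM cone-primed. Mesenchyme sums were 11.0 to 23.2 CPM, against 5.54 to 9.34 and 5.87 to 9.78 CPM. The endothelium sum was lower, at 292 to 308 CPM against 319 to 375 and 330 to 366 CPM. The part of these markers in the result was not tested.

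Among fibrillar members, Col11a1 had the highest mean level. It encodes the alpha1 chain of type XI, the thin core of cartilage and vitreous fibrils. Col11a1 counted 13.3, 4.14 and 3.80 CPM in untreated cells, 11.7, 11.7 and 7.96 CPM after cone priming and 21.7, 15.5 and 68.0 CPM after rod priming. In cone culture Col11a1 reached 74.8, 39.3 and 65.4 CPM at day 5, 428, 403 and 463 CPM at day 12, 677, 628 and 574 CPM at day 21 and 786, 629 and 696 CPM at day 35. In rod culture Col11a1 reached 86.9, 49.7 and 58.1 CPM at day 5, 399.8, 190.1 and 249.5 CPM at day 12, 623, 606 and 666 CPM at day 21 and 472, 689 and 585 CPM at day 35. Both arms climbed to overlapping levels at days 21 and 35. At day 35 against primed cells Col11a1 rose by 6.07 ± 0.48, adjusted p = 3.99e-11 in cone culture and by 4.04 ± 0.43, adjusted p = 1.34e-08 in rod culture. The cone minus rod difference was called at day 0 and in no later comparison, although every cone library was above every rod one at day 12. At day 35 the difference was 0.27 ± 0.38, adjusted p = 0.718. Its change with day was called (adjusted p = 0.0481).

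Col2a1 encodes the single chain of type II collagen, the main fibril collagen of vitreous and cartilage. It was above its untreated level in both arms by day 5 and had its highest group mean in cone culture at day 21. Col2a1 counted 64.2, 36.3 and 25.7 CPM in untreated cells, 67.7, 51.7 and 43.5 CPM after cone priming and 185, 162 and 199 CPM after rod priming. In cone culture Col2a1 reached 290.2, 154 and 227 CPM at day 5, 300.2, 234 and 202 CPM at day 12, 401, 569 and 324 CPM at day 21 and 223, 136 and 232 CPM at day 35. In rod culture Col2a1 reached 250.3, 249.8 and 327 CPM at day 5, 224, 487 and 244 CPM at day 12, 238, 192 and 222 CPM at day 21 and 445, 145 and 184 CPM at day 35. Cone culture rose between priming and day 5 (2.04 ± 0.37, adjusted p = 0.000289), whereas rod-primed cells were already high and their day 5 difference from priming was 0.60 ± 0.36, adjusted p = 0.255. Day 35 cone libraries were still above cone-primed ones (1.86 ± 0.37, adjusted p = 0.000106), and the rod difference was 0.50 ± 0.36, adjusted p = 0.238. From day 5 on no cone against rod difference of Col2a1 was called, and it was -0.30 ± 0.35, adjusted p = 0.672 at day 5. At day 21 it was 0.99 ± 0.36, adjusted p = 0.0834, with every cone library above every rod one.

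Col1a1, the alpha1 chain of type I collagen of fibrous tissue, was the fibrillar member called between cone and rod culture at day 5. Col1a1 counted 3.58, 0.267 and 0.407 CPM in untreated cells, 1.51, 1.21 and 0.733 CPM after cone priming and 0, 0.302 and 0.359 CPM after rod priming. In cone culture Col1a1 reached 27.4, 17.0 and 53.1 CPM at day 5, 216, 244 and 230.1 CPM at day 12, 339.6, 208 and 272 CPM at day 21 and 1294, 245 and 1408 CPM at day 35. In rod culture Col1a1 reached 0.786, 0.357 and 0.694 CPM at day 5, 20.4, 7.98 and 15.9 CPM at day 12, 49.3, 93.1 and 68.7 CPM at day 21 and 90.5, 293 and 95.4 CPM at day 35. Cone libraries were above every rod library at days 5, 12 and 21. At day 35 cone replicate 2 lay below the highest rod library, so the groups overlapped. The cone minus rod difference was 5.75 ± 0.81, adjusted p = 3e-05 at day 5, 3.96 ± 0.59, adjusted p = 4.55e-05 at day 12, 1.96 ± 0.53, adjusted p = 0.0192 at day 21 and 2.62 ± 0.54, adjusted p = 0.00156 at day 35. Its change over the days was not called. The 10-gene sum of mesenchyme markers was 9.34, 5.54 and 7.88 CPM in untreated cells. At day 35 it was 839, 311 and 903 CPM in cone and 269.5, 392 and 248 CPM in rod culture, which overlapped. The arms overlapped at day 5 as well (55.1, 22.7 and 44.2 CPM in cone, 29.3, 23.5 and 27.6 CPM in rod culture). They also did at day 12 (239, 159 and 156 CPM and 84.3, 209 and 117 CPM), when rod replicate 2 was highest of the rod libraries here and lowest for Col1a1. At day 21 cone culture was higher without overlap (406, 448 and 447 CPM and 173, 326 and 231 CPM). In untreated cells Twist2 and Foxc2 of that list were at 0 in all 3 libraries, and the part of these markers in the result was not tested.

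Col5a1, the alpha1 chain of type V, which starts fibrils of types I and II, was also higher in cone culture, with less spread at day 35. The change with day of its cone minus rod difference was called (adjusted p = 0.00589), unlike that of Col1a1. Col5a1 counted 11.0, 6.07 and 8.56 CPM in untreated cells, 9.31, 16.7 and 7.02 CPM after cone priming and 14.0, 12.9 and 25.6 CPM after rod priming. In cone culture Col5a1 reached 43.8, 33.0 and 44.8 CPM at day 5, 291, 245 and 334 CPM at day 12, 358, 292 and 282 CPM at day 21 and 374, 305 and 383 CPM at day 35. In rod culture Col5a1 reached 22.6, 17.8 and 20.6 CPM at day 5, 115, 34.7 and 65.2 CPM at day 12, 161, 159 and 204 CPM at day 21 and 95.3, 178 and 138 CPM at day 35. Cone libraries lay above all rod libraries at each of days 5, 12, 21 and 35. The cone minus rod difference was 1.00 ± 0.33, adjusted p = 0.053 at day 5, 2.02 ± 0.32, adjusted p = 0.000111 at day 12, 0.83 ± 0.31, adjusted p = 0.096 at day 21 and 1.37 ± 0.31, adjusted p = 0.00401 at day 35, called at days 12 and 35. Against primed cells it rose by 4.98 ± 0.38 in cone and 2.96 ± 0.34 in rod culture.

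The remaining fibrillar members were led by Col3a1, Col1a2 and Col5a2. Col3a1, the type III chain found with type I in soft tissue, counted 10.6, 0 and 0 CPM in untreated cells, 837, 122 and 1001 CPM in cone culture and 41.6, 226 and 34.8 CPM in rod culture at day 35. Untreated replicate 1 alone carried it at day 0, and cone replicate 2 lay within the rod range at day 35. Col1a2, the partner chain of Col1a1, counted 421, 87.4 and 920.5 CPM in cone and 51.3, 29.3 and 9.10 CPM in rod culture at day 35, without overlap. Col5a2, the second type V chain, counted 221, 184 and 390.3 CPM and 82.9, 118 and 133 CPM, and Col5a3, the rarest type V chain here, 47.8, 21.4 and 54.1 CPM and 13.1, 10.3 and 13.0 CPM. Both were higher in all cone libraries than in all rod ones. Col27a1 and Col24a1, of the later-found fibrillar group with shorter helices, had means of 14.5 ± 2.79 and 7.30 ± 4.06 CPM (SD, n = 3) in cone culture at day 35. Col11a2, the alpha2 chain of type XI, was the member of the class that fell, by 1.04 ± 0.29 on the log2 scale in cone culture (adjusted p = 0.0028), from 11.8, 8.73 and 14.1 CPM to 5.04, 5.92 and 5.81 CPM. In rod culture its difference was -0.20 ± 0.28, adjusted p = 0.568.

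Col18a1 had the highest mean of the basement membrane class. Type XVIII is a heparan sulfate collagen whose end fragment is endostatin. Col18a1 counted 6.01, 4.47 and 2.92 CPM in untreated cells, 6.92, 8.41 and 4.61 CPM after cone priming and 43.4, 32.8 and 102 CPM after rod priming. In cone culture Col18a1 reached 64.1, 25.8 and 44.3 CPM at day 5, 378, 336 and 434 CPM at day 12, 808, 708 and 591 CPM at day 21 and 819, 782 and 849 CPM at day 35. In rod culture Col18a1 reached 179, 123 and 174 CPM at day 5, 608, 324 and 612 CPM at day 12, 797, 860.4 and 783 CPM at day 21 and 1235, 1149 and 969.5 CPM at day 35. Rod-primed cells were above untreated cells by 3.79 ± 0.38, adjusted p = 1.19e-07. Rod stayed above cone without overlap at day 5, where the cone minus rod difference was -1.82 ± 0.32, adjusted p = 0.000538. At day 12 it was -0.43 ± 0.31, adjusted p = 0.457, at day 21 -0.21 ± 0.31, adjusted p = 0.748 and at day 35 -0.45 ± 0.31, adjusted p = 0.398, none of them called, although all rod libraries of day 35 were above the cone ones. Cone culture had risen by 6.93 ± 0.42 at day 35 and rod culture by 4.23 ± 0.36, from unequal starts. The change with day of the cone minus rod difference was called (adjusted p = 0.00047).

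Col4a1 and Col4a2 encode the chains of the common type IV network. Col4a1 counted 59.7, 44.0 and 50.8 CPM in untreated cells, 49.5, 63.9 and 60.0 CPM after cone priming and 39.6, 51.5 and 49.6 CPM after rod priming. In cone culture Col4a1 reached 125, 112 and 131 CPM at day 5, 756, 698 and 1033 CPM at day 12, 909, 772 and 622 CPM at day 21 and 1454, 740.1 and 1174 CPM at day 35. In rod culture Col4a1 reached 81.3, 59.2 and 55.4 CPM at day 5, 324, 83.0 and 172 CPM at day 12, 448, 423 and 615 CPM at day 21 and 278, 734 and 598 CPM at day 35. Day 0 libraries of the 3 groups were close, and rod replicate 2 at day 12 was the lowest of the late libraries. Col4a1 was higher in cone than in rod culture by 2.10 ± 0.34, adjusted p = 0.000158 at day 12 and by 1.06 ± 0.33, adjusted p = 0.0349 at day 35, with 0.91 ± 0.34, adjusted p = 0.0938 at day 5 and 0.63 ± 0.33, adjusted p = 0.265 at day 21. Pericyte and smooth muscle markers moved with it at day 12, when their 9-gene sum was 1376, 1314 and 2115 CPM in cone and 855, 242 and 419 CPM in rod culture, with Kcnj8 at 0 in both groups. The lowest rod library was the same one, and the part of these markers was not tested. At day 35 the marker sums were 2139, 1873 and 1615 CPM and 819.6, 1196 and 1764 CPM, which overlapped. The 7-gene endothelium sum was also higher in cone than in rod culture at day 35, without overlap, although it was below the untreated level in both arms: it was 341, 319 and 375 CPM in untreated cells, 148, 236 and 174 CPM in cone and 107, 58.0 and 64.0 CPM in rod culture at day 35, with Tie1 at 0 in each of these groups. Kdr, a VEGF receptor, made up most of it, at 339, 318 and 374 CPM in untreated cells, 125, 233 and 166 CPM in cone and 106, 40.7 and 60.5 CPM in rod culture, and the part of these markers was not tested.

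Col4a2 kept close to its partner. Col4a2 counted 40.9, 24.2 and 44.0 CPM in untreated cells, 29.8, 54.2 and 33.7 CPM after cone priming and 30.5, 37.8 and 53.6 CPM after rod priming. In cone culture Col4a2 reached 89.7, 70.4 and 97.2 CPM at day 5, 608, 500.4 and 783 CPM at day 12, 715, 653 and 524 CPM at day 21 and 1080.5, 566 and 878 CPM at day 35. In rod culture Col4a2 reached 54.9, 41.1 and 46.7 CPM at day 5, 279, 72.2 and 149 CPM at day 12, 326, 277 and 378 CPM at day 21 and 214, 537 and 389.7 CPM at day 35. As with Col4a1, every cone library was above every rod library on each of days 5, 12, 21 and 35. The cone minus rod difference was 1.92 ± 0.36, adjusted p = 0.000815 at day 12 and 1.15 ± 0.36, adjusted p = 0.0327 at day 35. Over primed cells Col4a2 rose by 4.42 ± 0.41, adjusted p = 6.13e-10 in cone and 3.22 ± 0.39, adjusted p = 9.17e-08 in rod culture at day 35.

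Col4a5 is an X-linked chain that joins either Col4a3 and Col4a4 or Col4a6. It differed less between arms than Col4a1 and Col4a2 at days 5, 12, 21 and 35, and more than Col18a1 from day 12 on. Col4a5 counted 47.1, 46.0 and 57.2 CPM in untreated cells, 37.9, 66.9 and 50.9 CPM after cone priming and 35.7, 53.4 and 56.8 CPM after rod priming. In cone culture Col4a5 reached 84.5, 67.8 and 68.6 CPM at day 5, 376, 288 and 378 CPM at day 12, 480.5, 375 and 341 CPM at day 21 and 433, 388 and 355 CPM at day 35. In rod culture Col4a5 reached 83.8, 70.2 and 73.0 CPM at day 5, 271, 120.0 and 177 CPM at day 12, 341, 219.9 and 314 CPM at day 21 and 256, 289 and 291 CPM at day 35. Its cone minus rod difference was called at day 12 alone of the 5 days (0.87 ± 0.23, adjusted p = 0.0122), and at day 35 it was 0.49 ± 0.22, adjusted p = 0.168 with groups that did not overlap. Col4a6, its X-linked neighbour, went from 17.2, 42.8 and 23.3 CPM in cone-primed cells to 222, 202 and 181 CPM at day 35 and in rod culture from 8.54, 15.1 and 26.5 CPM to 117, 103 and 126 CPM.

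Col4a3 and Col4a4, chains of the network of the kidney filter and of parts of the eye, came up in rod culture first. At day 5 Col4a3 counted 7.08, 4.93 and 8.82 CPM in rod and 1.40, 0.547 and 1.05 CPM in cone culture, and Col4a4 9.10, 5.22 and 7.01 CPM and 1.34, 0.182 and 0.581 CPM. Every rod library was above every cone library. The cone minus rod differences were -2.79 ± 0.51, adjusted p = 0.000766 for Col4a3 and -3.34 ± 0.56, adjusted p = 0.000274 for Col4a4. By day 12 the rod libraries spread from 9.48 to 45.4 CPM of Col4a3 and enclosed the cone libraries at 21.2, 19.5 and 35.1 CPM, and no later cone minus rod difference of either gene was called. Rod replicate 2 was again the lowest. Col15a1, the type XV chain, was low until late and counted 35.5, 8.07 and 84.3 CPM in cone and 6.71, 12.9 and 4.07 CPM in rod culture at day 35, with overlap through cone replicate 2 (2.44 ± 0.58, adjusted p = 0.00516).

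Col9a1 had the highest mean level of the other types over all 33 libraries, although Col8a1 led them in cone culture at days 12 and 35. Like Col18a1, Col9a1 had a higher mean in rod than in cone groups on all 5 days. Its product is the alpha1 chain of type IX, which coats type II fibrils. The gene has a long and a short transcript from separate start sites, which gene counts do not tell apart. Col9a1 counted 112, 61.2 and 84.7 CPM in untreated cells, 79.5, 188 and 72.4 CPM after cone priming and 271, 332 and 644 CPM after rod priming. In cone culture Col9a1 reached 332, 241 and 268 CPM at day 5, 388, 405 and 248 CPM at day 12, 685, 897 and 459 CPM at day 21 and 338, 489 and 420.4 CPM at day 35. In rod culture Col9a1 reached 754, 570.1 and 746 CPM at day 5, 658, 812 and 705 CPM at day 12, 890.1, 747 and 964 CPM at day 21 and 1215, 607 and 1011 CPM at day 35. Rod libraries exceeded all cone libraries at days 0, 5, 12 and 35, and overlapped them at day 21. The cone minus rod difference was -1.87 ± 0.34, adjusted p = 0.000759 at day 0, -1.30 ± 0.34, adjusted p = 0.0127 at day 5, -1.06 ± 0.33, adjusted p = 0.0401 at day 12, -0.35 ± 0.33, adjusted p = 0.591 at day 21 and -1.18 ± 0.33, adjusted p = 0.0186 at day 35. The day 0 call held with any 1 library left out, and those of days 5, 12 and 35 did not, with highest adjusted p of 0.0835, 0.217 and 0.104.

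Its partner chains did not share that order. Col9a2 counted 34.7, 13.3 and 26.0 CPM in cone and 9.55, 5.15 and 8.75 CPM in rod culture at day 5, and was higher in cone by 1.67 ± 0.53, adjusted p = 0.0477. At day 35 Col9a2 counted 32.3, 29.8 and 61.3 CPM in cone and 20.9, 11.4 and 13.2 CPM in rod culture, with no overlap and no call (adjusted p = 0.0668). Col9a3 overlapped between arms at day 35, at 92.4 ± 22.9 CPM in cone and 78.3 ± 44.0 CPM in rod culture (SD, n = 3).

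Col23a1, a membrane-spanning collagen, was high from the start and rose in both arms. Col23a1 counted 59.7, 50.9 and 63.6 CPM in untreated cells, 49.8, 76.0 and 62.9 CPM after cone priming and 37.3, 41.1 and 58.4 CPM after rod priming. In cone culture Col23a1 reached 130.1, 126 and 102 CPM at day 5, 253, 168 and 142 CPM at day 12, 215, 230.0 and 174 CPM at day 21 and 109, 107 and 120.2 CPM at day 35. In rod culture Col23a1 reached 118, 121 and 141 CPM at day 5, 238, 169 and 245 CPM at day 12, 223, 228 and 306 CPM at day 21 and 324, 177 and 312 CPM at day 35. The arms parted at day 35, when all cone libraries lay below all rod ones and the cone minus rod difference was -1.27 ± 0.22, adjusted p = 0.000279. That call held with any 1 library left out, and the change with day was called (adjusted p = 0.0082).

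Col8a1, a short-chain collagen of the membrane under the corneal endothelium and of vessel walls, went from near 0 to a leading level. Col8a1 counted 0.895, 0 and 0.0679 CPM in untreated cells, 0, 0 and 0.210 CPM after cone priming and 0, 0.202 and 0 CPM after rod priming. In cone culture Col8a1 reached 23.2, 13.3 and 21.9 CPM at day 5, 383, 351 and 423 CPM at day 12, 474, 281 and 352 CPM at day 21 and 569, 366 and 550.4 CPM at day 35. In rod culture Col8a1 reached 4.16, 1.43 and 1.39 CPM at day 5, 99.8, 15.1 and 41.6 CPM at day 12, 95.2, 42.5 and 53.5 CPM at day 21 and 47.6, 52.4 and 80.1 CPM at day 35. Cone libraries were above all rod libraries on all 4 days after priming. The cone minus rod difference was 3.17 ± 0.57, adjusted p = 0.000578 at day 5, 2.89 ± 0.46, adjusted p = 0.000115 at day 12, 2.53 ± 0.45, adjusted p = 0.000535 at day 21 and 3.04 ± 0.46, adjusted p = 5.83e-05 at day 35, each called with any 1 library left out. The primed libraries held so few counts that the day 35 rise is a ratio of counts, 7415 (95% interval 2052 to 61234) in cone and 878 (95% interval 243 to 7257) in rod culture. Col8a2, its partner, counted 38.6, 9.36 and 46.5 CPM in cone and 0.595, 24.4 and 2.45 CPM in rod culture at day 35. Rod replicate 2 lay among the cone libraries there, and the difference was called at days 12 (4.04 ± 1.02, adjusted p = 0.0109) and 21 (3.77 ± 0.84, adjusted p = 0.00454) and not at day 35 (adjusted p = 0.0985).

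Col12a1, a fibril-associated collagen of tendon, cornea and other loaded tissue, reached like levels in both arms from unequal starts. Col12a1 counted 1.02, 0.333 and 0.340 CPM in untreated cells, 0.378, 0.647 and 1.05 CPM after cone priming and 3.93, 1.41 and 2.51 CPM after rod priming. In cone culture Col12a1 reached 14.2, 4.80 and 6.34 CPM at day 5, 163, 92.8 and 122 CPM at day 12, 120.1, 194 and 172 CPM at day 21 and 393, 159 and 410.4 CPM at day 35. In rod culture Col12a1 reached 8.87, 21.2 and 23.8 CPM at day 5, 99.0, 111 and 73.0 CPM at day 12, 160.1, 202 and 212 CPM at day 21 and 155, 219 and 246 CPM at day 35. Groups overlapped at days 5, 12, 21 and 35. At day 35 it was above primed cells by 8.82 ± 0.57, adjusted p = 8.26e-13 in cone and 6.34 ± 0.49, adjusted p = 4.21e-11 in rod culture, and the cone minus rod difference was 0.63 ± 0.35, adjusted p = 0.275.

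**Figure D3:**
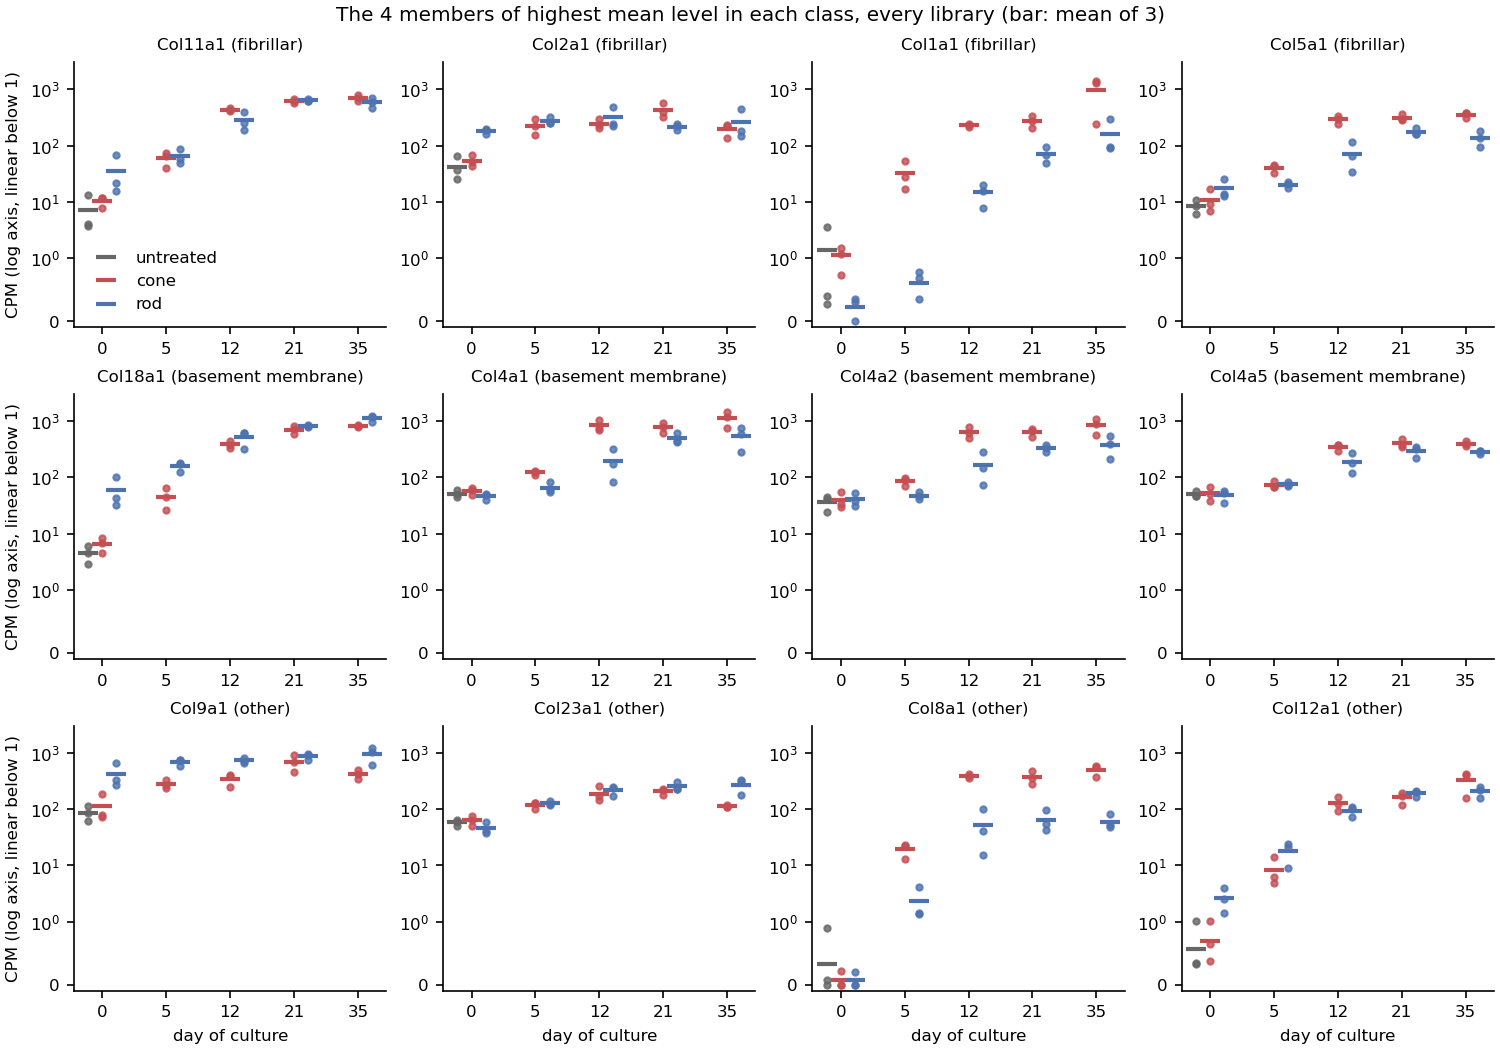
Level (y axis, CPM, log scale, linear below 1) against day of culture (x axis) of the 4 members of highest mean level in each class, 1 point a library and a bar at the mean of 3, with untreated, cone and rod groups in separate colours. The cone points of Col8a1 lie above the rod points on each day after priming, those of Col9a1 lie below at days 0, 5, 12 and 35, and those of Col1a1 spread at day 35 because replicate 2 stands at 245 CPM.

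Type VI chains turned over in their balance. Col6a1 counted 111, 34.1 and 144 CPM in cone and 8.16, 54.2 and 12.7 CPM in rod culture at day 35, against 77.6, 67.3 and 70.0 CPM and 27.3, 22.6 and 20.3 CPM in the primed cells. Col6a2, the next chain of the trimer, counted 86.8, 15.8 and 111 CPM and 4.93, 43.9 and 7.62 CPM at day 35. Col6a3, the longest of the trimer's chains, counted 148, 17.9 and 214 CPM and 6.46, 14.5 and 7.49 CPM. Cone replicate 2 was low for all 3 chains and rod replicate 2 was high, so that Col6a1 and Col6a2 overlapped while Col6a3 did not. Col6a4, Col6a5 and Col6a6, chains that can take the place of Col6a3, stayed low: their highest library values were 5.78, 1.62 and 1.54 CPM.

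Among the transmembrane and remaining members, Col25a1 and Col7a1 differed between arms on several days. Col25a1, a membrane collagen of neurons, counted 5.38, 8.13 and 3.85 CPM in cone and 29.3, 201 and 100.1 CPM in rod culture at day 21, and 3.16, 1.72 and 7.83 CPM and 49.2, 101 and 25.4 CPM at day 35. All rod libraries were above all cone libraries on both days, and the rod values of day 21 spread widely. Col7a1, the anchoring fibril chain that ties basement membrane to the tissue beneath, counted 75.3, 57.2 and 86.8 CPM in cone and 7.50, 6.00 and 4.76 CPM in rod culture at day 12, and 38.1, 70.1 and 37.6 CPM and 7.31, 9.62 and 13.7 CPM at day 35. It was higher in every cone library than in every rod one from day 12 on, and each of those calls held with any 1 library left out. Col17a1, a hemidesmosome collagen of epithelia, was highest in cone culture at day 5, at 16.8, 11.6 and 13.9 CPM against 2.36, 1.93 and 2.15 CPM in rod culture, and was at 0.0853, 0.343 and 0 CPM in cone culture at day 35. Col28a1, a collagen with von Willebrand domains, had 0 counts in all 9 libraries of day 0 and counted 44.0, 5.49 and 47.7 CPM in cone and 9.94, 154 and 12.5 CPM in rod culture at day 35, which in cone culture is at least 104-fold above the floor of 3 counts a library. Rod replicate 2 held most of the rod level, so no fold is given for rod culture.

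The lowest members add little. Col19a1, Col22a1 and Col13a1 had highest library values of 2.67, 4.32 and 6.17 CPM, and Col10a1 of 2.14 CPM. Col14a1 and Col16a1, which bind to fibril surfaces, reached 79.6 and 91.7 CPM. Col20a1 ranged from 2.56 to 12.6 CPM over the 33 libraries and Col26a1 from 0.649 to 24.8 CPM. Of the 44 members, 21 had their highest group mean in cone culture at day 35, 6 in cone day 5 and 5 in cone day 21. In rod culture 4 peaked at day 21, 4 at day 35 and 2 at day 12, and the remaining 2 peaked in cone day 12.

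At day 5 cone and rod culture differed in 9 of 42 members (21.4%), 5 higher and 4 lower in cone, where 9.28% of all genes tested were called in this comparison, 3.48% higher and 5.8% lower. Cone was higher in 1 of 11 fibrillar genes, Col1a1, and in 4 of 23 others, Col8a1, Col6a2 (3.03 ± 0.91, adjusted p = 0.0338), Col17a1 (2.72 ± 0.62, adjusted p = 0.00495) and Col9a2. Rod was higher in 3 of 8 basement membrane genes, Col4a4, Col4a3 and Col18a1, and in Col9a1. The median log2 difference was 1.00 for fibrillar, 0.26 for basement membrane and 0.29 for other genes (with members near 0 counts at their bound), against 0.01 over all genes. With single libraries left out, 6 of the 9 stayed called, and Col6a2, Col9a1 and Col9a2 did not, with highest adjusted p of 0.139, 0.0835 and 0.185. Each of the 6 libraries ended at least 1 of those 3 calls, and a fit of only these libraries called 18.

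At day 12 the difference was nearly all in the cone direction. Of 42 members 13 (30.9%) were called, 12 higher and 1 lower in cone, where 10.1% of all genes tested were called in this comparison, 5.98% higher and 4.12% lower. Cone was higher in 4 of 11 fibrillar genes (Col1a1, Col1a2, Col5a1 and Col5a2) and 4 of 8 basement membrane genes (Col4a1, Col4a2, Col4a6 and Col4a5). Among the others Col8a2, Col7a1, Col8a1 and Col16a1 were higher and Col9a1 was lower. Col1a2 differed by 3.21 ± 0.81, adjusted p = 0.00997, Col5a2 by 1.76 ± 0.36, adjusted p = 0.00169, Col7a1 by 3.58 ± 0.31, adjusted p = 4.01e-08 and Col16a1 by 2.29 ± 0.34, adjusted p = 5.36e-05. Groups overlapped for none of the 13, and the share without overlap among all called genes was not counted. Class medians were 1.14, 0.43 and 0.42 in the same order, against -0.01 over all genes. Leaving out single libraries kept 9 of the 13, and Col1a2, Col4a5, Col4a6 and Col9a1 were lost (highest adjusted p 0.0609, 0.0895, 0.0723 and 0.217), all 4 of them without rod replicate 2. A fit of only the 6 libraries compared called 4 members, and voom with sample quality weights called 23.

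At day 21 the type VIII chains, Col7a1 and Col16a1 were again higher in cone culture. Of 42 members 9 (21.4%) were called, 6 higher and 3 lower in cone, where 9% of all genes tested were called in this comparison, 5.86% higher and 3.14% lower. Col8a2, Col8a1, Col13a1, Col7a1 and Col16a1 were higher among the other types, as was Col1a1 among fibrillar genes. Col25a1 (-4.25 ± 0.64, adjusted p = 6.96e-05), Col6a5 and the fibrillar Col27a1 were lower. None of the 8 basement membrane genes was called, and the medians were 0.83, 0.54 and 0.96, against 0.03 over all genes. Col6a5 rests on few reads, with counts of 1, 1 and 0 in cone and 1, 21 and 12 in rod libraries. Its ratio of CPM was 0.0739 (95% interval 0.00861 to 0.288), and the groups overlapped, as they did for Col27a1. The count was 5 without cone replicate 1 or without rod replicate 3, 15 in a fit of only the 6 libraries compared and 17 under voom with sample quality weights, so it is not ranked against the counts of other days. Col16a1, Col25a1, Col7a1, Col8a1 and Col8a2 stayed called throughout, and the highest adjusted p was 0.0796 for Col1a1, 0.121 for Col13a1, 0.29 for Col27a1 and 0.238 for Col6a5.

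At day 35 type I, III and V chains, Col6a3 and Col7a1 were higher in cone culture, and Col25a1, Col23a1 and Col9a1 in rod culture. Of 42 members 20 (47.6%) were called, 17 higher and 3 lower in cone, where 12.3% of all genes tested were called in this comparison, 7.77% higher and 4.51% lower. Fibrillar genes made up 7 of the higher ones. The 6 largest were Col1a2 (4.00 ± 0.78, adjusted p = 0.000929), Col3a1 (2.70 ± 0.86, adjusted p = 0.0378), Col1a1, Col24a1 (1.98 ± 0.62, adjusted p = 0.0339), Col5a3 (1.76 ± 0.43, adjusted p = 0.00657) and Col5a1. In the basement membrane class Col15a1, Col4a2 and Col4a1 were higher. Among the other types Col6a3 (3.74 ± 0.73, adjusted p = 0.000847), Col8a1, Col13a1 (2.50 ± 0.80, adjusted p = 0.0398), Col7a1 (2.24 ± 0.30, adjusted p = 9.41e-06) and Col26a1 (2.11 ± 0.57, adjusted p = 0.0151) were higher, and Col25a1 (-3.78 ± 0.64, adjusted p = 0.00019) had the largest difference in the other direction. Col23a1 and Col9a1 were the other members lower in cone. Groups overlapped for 6 of the 20, namely Col1a1, Col3a1, Col15a1, Col13a1, Col26a1 and Col6a1. Medians were 1.37 for fibrillar, 0.72 for basement membrane and 1.01 for other genes, against 0.02 over all genes.

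The day 35 count rests on few libraries. It was 10 without cone replicate 3, 12 without cone replicate 1 or rod replicate 1, and 22 without cone replicate 2. A fit of only the 6 libraries compared called 14 (11 of them among the 20), and voom called 23, as many as at day 12. The 10 that stayed called with any 1 library left out were Col16a1, Col1a1, Col1a2, Col23a1, Col25a1, Col5a1, Col5a3, Col6a3, Col7a1 and Col8a1. The highest adjusted p for the rest was 0.162 for Col3a1, 0.189 for Col24a1, 0.158 for Col5a2, 0.121 for Col15a1, 0.209 for Col4a1, 0.195 for Col4a2, 0.301 for Col13a1, 0.0918 for Col26a1, 0.117 for Col6a1 and 0.104 for Col9a1. The mesenchyme markers given above overlapped between arms at day 35, while the microglia and macrophage markers did not. The 9-gene sum of the latter was 18.9, 39.1 and 104 CPM in cone and 1.87, 3.48 and 1.61 CPM in rod culture. The 9-gene lens sum was 148, 169.8 and 125 CPM in cone and 91.1, 72.5 and 99.2 CPM in rod culture, also without overlap. It had a mean of 1.17 CPM in untreated cells, and Lim2 was at 0 in all 3 groups. Only 2 of its 9 genes had a mean over 1 CPM in each arm, and Cryba1 and Mip were also at 0 in rod culture. The chondrocyte and cartilage sum went the other way, at 119, 87.3 and 123 CPM in cone and 132, 145 and 143 CPM in rod culture. Of its 7 genes, 3 in cone and 2 in rod culture had a mean over 1 CPM. The part of these markers was not tested.

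**Figure D4:**
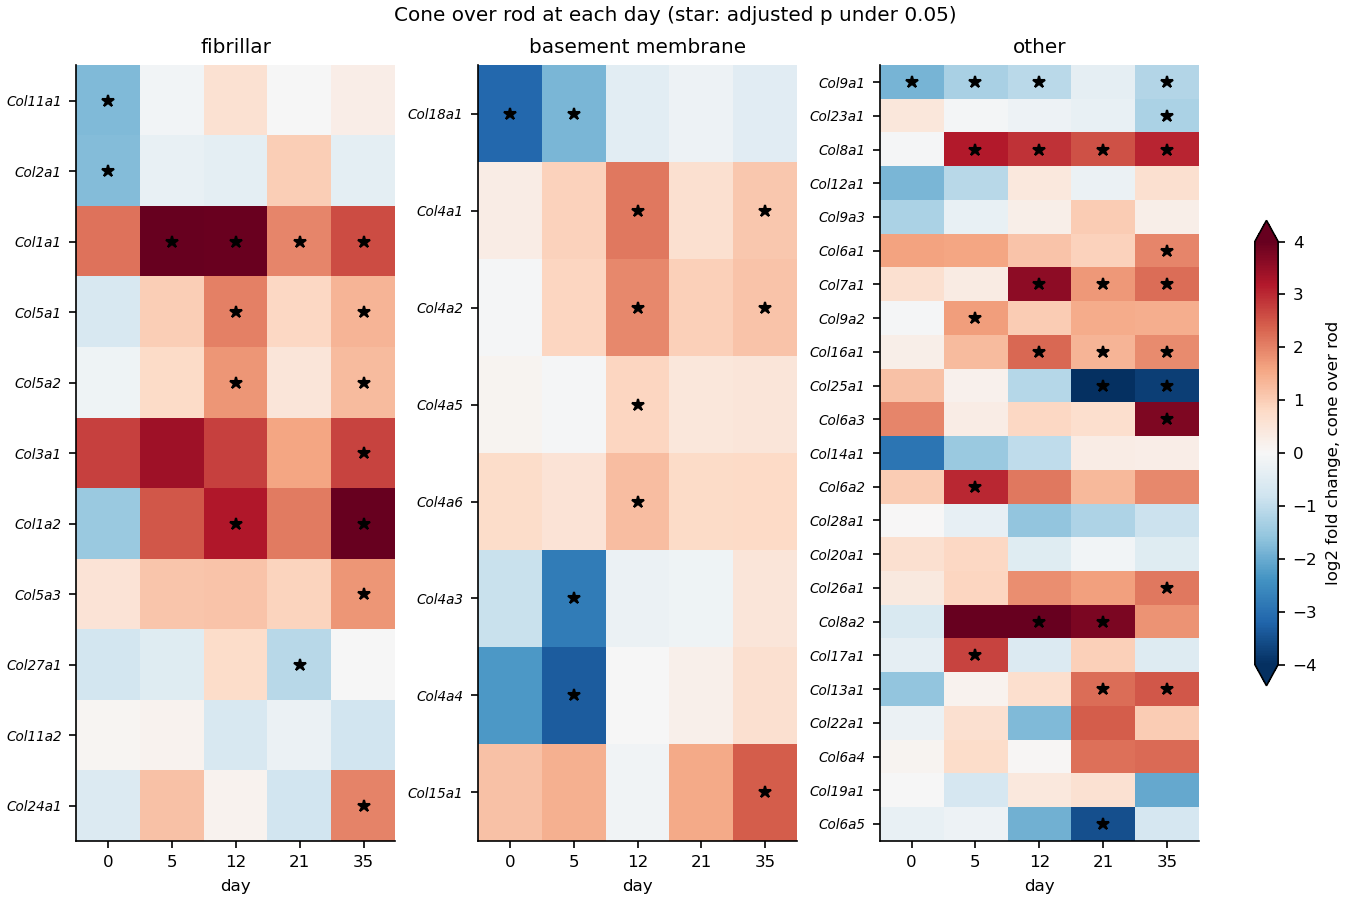
Cone minus rod log2 difference of each tested member (a row a gene, by class) at days 0, 5, 12, 21 and 35 (columns), in colour from lower to higher in cone, with a star where the adjusted p is under 0.05. Stars for Col8a1 stand at days 5 to 35, those for Col7a1 from day 12, and the fibrillar class has 7 stars at day 35 against 1 at day 5.

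In 1 test across the 5 days, 10 of 42 members (23.8%) had a cone minus rod difference that changed, against 9.22% of all genes tested. They were Col7a1, Col18a1, Col25a1, Col4a4, Col5a1, Col23a1, Col2a1, Col4a3, Col22a1 and Col11a1. For Col18a1, Col2a1, Col11a1, Col4a3 and Col4a4 the cone minus rod difference was lowest at day 0 or day 5 and nearer to 0 or higher by day 35. For Col23a1 and Col25a1 it was near 0 at day 5 (-0.09 and 0.18) and lower at day 35. Col22a1, a fibril-associated collagen, was under 5 CPM in every library, at 4.14, 4.32 and 3.43 CPM in cone and 2.92, 2.14 and 2.57 CPM in rod culture on day 5. Without rod day 12 replicate 1 the count was 18, and DESeq2 called 20.

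At day 5, measured against their own primed cells, Col8a1, Col12a1, Col5a3 and Col18a1 had risen in both arms. At that day cone culture had 18 of 42 members (42.9%) called, all higher, where 22.3% of all genes tested were called in this comparison, 12.2% higher and 10.2% lower. Rod culture had 7 called (16.7%), all higher, where 17.5% of all genes tested were called in this comparison, 8.76% higher and 8.79% lower, a share near that of all genes. The rod count was 14 both under voom and in a fit of only the libraries compared. In cone culture these were 6 of 11 fibrillar (Col1a1, Col5a3, Col11a1, Col2a1, Col5a1 and Col5a2), 3 of 8 basement membrane (Col18a1, Col4a2 and Col4a1) and 9 of 23 other genes, led by Col8a1, Col12a1, Col17a1, Col16a1, Col22a1 and Col9a3. In rod culture they were Col5a3, the basement membrane genes Col4a4, Col4a3 and Col18a1, and Col8a1, Col12a1 and Col23a1. Rod-primed cells started higher for Col2a1, Col11a1, Col9a1 and Col18a1, so the 2 arms are not measured from a like level. Single libraries ended the calls of Col20a1, Col4a1 and Col4a2 in cone culture (highest adjusted p 0.124, 0.0657 and 0.0922) and of Col8a1 in rod culture (0.0895).

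By day 35 most members had risen in both arms. Cone culture had 35 of 42 called (83.3%), 33 higher and 2 lower, where 57.7% of all genes tested were called in this comparison, 31.1% higher and 26.5% lower. Rod culture had 31 called (73.8%), 28 higher and 3 lower, where 55.6% of all genes tested were called in this comparison, 29.4% higher and 26.2% lower. All 8 basement membrane genes rose in each arm, with a median log2 difference of 4.90 in cone and 3.59 in rod culture. Fibrillar genes rose in 10 of 11 cases in cone (median 4.98) and in 8 of 11 in rod culture (median 3.13), and the other types in 15 of 23 and 12 of 23 (medians 2.02 and 1.22). The median over all genes was 0.03 and 0.04. The 2 days share the primed libraries of their arm.

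The largest rises at day 35 lay in members that were close to 0 when primed. In cone culture Col1a1 rose by 9.74 ± 0.81, adjusted p = 9.67e-11, Col3a1 by 9.36 ± 1.29, adjusted p = 6.4e-07 and Col1a2 by 8.60 ± 1.06, adjusted p = 1.08e-07, followed by Col11a1, Col5a3 and Col5a2. In rod culture Col3a1 rose by 9.38 ± 1.60, adjusted p = 1.74e-05, Col1a1 by 9.29 ± 0.94, adjusted p = 4.72e-09 and Col1a2 by 3.13 ± 0.88, adjusted p = 0.00368. Basement membrane rises were led by Col18a1, Col15a1 (6.66 ± 0.80, adjusted p = 6.52e-08) and Col4a4 (6.62 ± 0.76, adjusted p = 2.98e-08) in cone and by Col15a1 (5.41 ± 0.92, adjusted p = 1.8e-05), Col18a1 and Col4a3 (4.02 ± 0.57, adjusted p = 1.29e-06) in rod culture. Among other types in cone culture Col8a1, Col28a1, Col14a1, Col12a1, Col8a2 and Col6a3 led, and the primed cells' counts give ratios of 565 (95% interval 193 to 2741) for Col14a1 and 475 (95% interval 131 to 3925) for Col8a2. In rod culture Col28a1, Col8a1, Col12a1, Col8a2, Col6a3 (5.98 ± 1.26, adjusted p = 0.000235) and Col14a1 (5.79 ± 0.72, adjusted p = 1.64e-07) led. Falls were called for Col11a2 and Col17a1 in cone culture and for Col17a1, Col22a1 and Col6a4 in rod culture, where the Col6a4 ratio of CPM was 0.0797 (95% interval 0.00897 to 0.333). Col17a1 fell by 3.51 ± 0.92 and by 3.38 ± 0.84 on the log2 scale (adjusted p = 0.00192 and 0.00125). Single libraries ended the calls of Col13a1 and Col26a1 in cone (highest adjusted p 0.201 and 0.0564) and of Col22a1 and Col6a4 in rod culture (0.168 and 0.107).

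Levels of different genes were compared as CPM per kilobase of exon, with all annotated exons of a gene joined. A transcript can be shorter than that, so the ranking and the chain ratios below depend on the annotation. Col6a1 was first in untreated cells at 18.0 ± 1.25 CPM per kilobase (SD, n = 3), beside Col9a1 at 16.9 ± 4.98, which did not differ beyond their spread. Col9a1 was also within its spread of Col6a1 in cone-primed cells, at 22.4 ± 12.8 against 16.4 ± 1.22. It led in rod-primed cells, at day 5 in both arms and in rod culture at days 12 and 21. In rod culture at day 35 Col9a1 and Col18a1, at 186 ± 61.0 and 159 ± 19.3, did not differ beyond their spread, nor did Col9a1 and Col4a1 in cone culture at day 21, at 134 ± 43.2 and 103 ± 19.2. Cone culture at day 12 had Col4a1 at 111 ± 24.0 and Col4a2 at 95.3 ± 21.6, within their spread. At day 35 Col4a1 and Col1a1 shared the lead in cone culture, at 150.4 ± 48.2 and 149.7 ± 97.7, with spreads far wider than the gap between them.

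Chains that build 1 molecule were set side by side on the same scale, as a description with no test. Col4a1 and Col4a2 lie head to head on chromosome 8, their models overlapping by 22 bases, and the mean ratio of Col4a1 to Col4a2 was between 1.02 and 1.37 in all 11 groups. Col4a3 and Col4a4, head to head on chromosome 1 and 71 bases apart, had mean ratios of 0.984 to 1.43 in the 7 groups with enough counts. Col4a5 and Col4a6, head to head on the X chromosome and 1308 bases apart, had mean ratios of 2.19 to 3.90. The means also split by arm, at 2.19 to 2.60 in untreated and cone groups and 2.8 to 3.90 in rod groups. Single libraries overlapped, at 1.86 to 2.97 and 2.55 to 4.95. Col5a1 and Col5a2 held mean ratios of 1.26 to 2.21.

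Type IX did not hold 1 ratio. Col9a1 (chromosome 1) to Col9a2 (chromosome 4) was 6.58, 8.76 and 11.0 in untreated cells, 6.13, 7.48 and 6.59 after cone priming and 23.0, 57.5 and 19.3 after rod priming. At day 35 it was 6.38, 10.0 and 4.19 in cone and 35.5, 32.5 and 46.9 in rod culture. Over all days the 18 untreated and cone libraries lay between 4.19 and 11.8 and the 15 rod libraries between 17.4 and 67.6. Col9a1 to Col9a3 showed the same order of means, 3.56 to 4.70 in untreated and cone groups and 7.74 to 10.3 in rod groups. Col6a1 to Col6a2 went from 42.8, 86.5 and 102 in untreated cells to 2.44, 4.10 and 2.48 in cone and 3.15, 2.35 and 3.17 in rod culture at day 35. Their annotated exons cover 4380 and 8326 bases for 1025 and 1034 codons, so the size of this ratio rests on the annotation more than its change does.

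**Figure D5:**
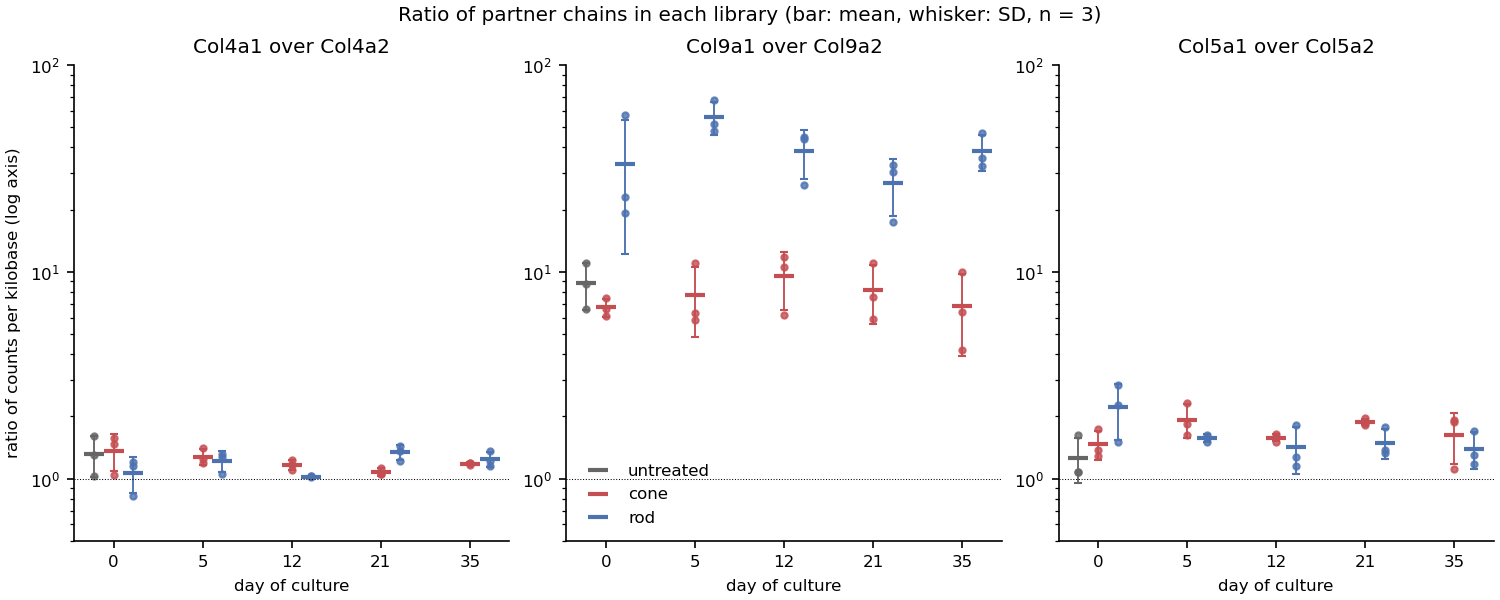
Ratio of counts per kilobase (y axis, log scale) of partner chains against day of culture (x axis), 1 point a library, with the mean as a bar and the SD as a whisker (n = 3), by untreated, cone and rod group. Col4a1 over Col4a2 stays near 1 in all groups, whereas Col9a1 over Col9a2 lies at 17.4 or more in every rod library and at 11.8 or less in every untreated and cone library.

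Genes that fold, trim, link and bind collagens were taken from lists that are not collagens themselves. Of 21 genes for folding and modification, 7 rose after rod priming, where 6.71% of all genes tested rose. They were led by Fkbp10 (2.12 ± 0.40, adjusted p = 0.000741), a prolyl isomerase of the procollagen pathway, Crtap (1.45), of the prolyl 3-hydroxylase complex, Serpinh1 (1.31), the collagen chaperone HSP47, and Plod1 (1.27), a lysyl hydroxylase. After cone priming 0 were called, as were 0% of all genes tested. Cone-primed cells were lower than rod-primed ones for 6, where 4.77% of all genes tested were lower. The same 4 genes led again (-1.66, -1.21, -1.06 and -0.81). At day 35 against primed cells 19 of 21 rose in each arm, where 31.1% of all genes tested rose in cone and 29.4% in rod culture, led by Fkbp10 in cone (5.60) and P3h2, a prolyl 3-hydroxylase, in rod culture (6.25). Between arms after day 0, 1 to 3 of the 21 were called at each day, among them P4ha2, a prolyl 4-hydroxylase subunit, at days 5, 21 and 35 (1.13, 0.96 and 0.95). Of all genes tested, 9.28, 10.1, 9 and 12.3% were called at days 5, 12, 21 and 35, shares near those of the list.

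Of the 14 propeptide cleavage and cross-linking genes, 4 rose after rod priming, where 6.71% of all genes tested rose. They were Adamts3 (4.05), a procollagen N-proteinase, and Loxl2 (3.12), Loxl1 (2.85) and Loxl3 (1.08), which oxidise lysine for cross-links. Adamts3 was lower in cone-primed than in rod-primed cells (-3.48 ± 0.39, adjusted p = 1.02e-06). At day 5 cone was higher for 6 and lower for 1 (Loxl3), led by Lox (3.55 ± 0.50, adjusted p = 3.1e-05), Loxl2 (2.79) and Loxl1 (2.07), and by Adamts14 (2.54), another procollagen N-proteinase. At day 12 9 were higher and 1 lower (Adamts3), led by Tll2 (4.46), Pcolce2 (3.30), Adamts14 (3.25) and Lox (3.14). At day 21 6 were higher, with Tll2 at 3.20 and Adamts14 at 2.13, and at day 35 5 were higher, with Adamts14 at 3.45 and Pcolce2 at 2.28. Of all genes tested, 3.48, 5.98, 5.86 and 7.77% were higher in cone at days 5, 12, 21 and 35. At days 5 and 12, 5.8 and 4.12% were lower. Against primed cells all 14 rose in cone culture by day 35, led by Lox (10.88), and in rod culture 12 rose and 1 fell, against the same 31.1% and 29.4% of all genes that rose.

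Of 10 collagen receptor and uptake genes tested, Itga11, the integrin subunit that binds fibrillar collagen, was higher in cone culture at days 5, 12, 21 and 35 (3.63, 2.82, 2.47 and 4.91). Itga2, another collagen-binding subunit, was lower in cone at days 0, 5 and 12 (-2.51, -2.06 and -1.14). Ddr2, a kinase receptor for fibrillar collagen, rose after rod priming (4.77) and in both arms by day 35 (7.45 in cone and 4.22 in rod culture). Of 14 basement membrane partners tested, Lama3, a laminin chain of epithelial basement membranes, was higher in cone on all 4 days after priming (3.53, 4.21, 4.06 and 4.75). Lama2 and Lamb2, other laminin chains, were lower in cone at day 5 (-1.42 and -0.64), as was the proteoglycan Agrn at day 35 (-0.41). Lama5 and Lamb2 rose after rod priming (1.38 and 0.86) and were lower in cone-primed than in rod-primed cells (-1.34 and -0.74). By day 35 12 of the 14 rose in cone and 11 in rod culture, where 31.1% and 29.4% of all genes rose, with Lama4, the laminin chain of vessel walls, at 7.71 and 5.80.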

How the data were processed

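Per the labels, total RNA of 33 libraries in 11 groups was extracted and made into libraries with Takara kits for very low input. Per the submitters' processing notes, HISAT2, StringTie and HTSeq were used with mouse build GRCm38. Their versions and roles, and whether counting used strand, are not given in the sources used here. Raw read counts of 47729 genes, not normalised, were deposited by the authors for each library, and genes took 26.9 to 34.9% of the counted reads. The 5 summary lines of each table were left out. Per the file headers, the second table of each library holds TPM, FPKM and coverage (a signal per base) by the authors. FPKM and coverage were not used, and TPM, as log2(TPM + 1) tested with limma, served only as an alternative. By TPM, 23.4 to 37.4% of genes with at least 50 counts are listed at 0.

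Genes were filtered with filterByExpr of edgeR (minimum count 10, by group), scaled with TMM and fitted in 1 quasi-likelihood model of all 33 libraries (common biological coefficient of variation 0.213, 22 residual degrees of freedom). Benjamini-Hochberg adjustment ran over 18150 genes, and a gene was called at an adjusted p under 0.05. Fold changes are log2 with standard errors. Where a group had 0 counts, folds were computed against a floor of 3 counts a library, and where it had 1 to 3 counts, the ratio of CPM was given with an exact 95% interval for counting error. Reads carry no molecular identifiers. Tools were R 4.3.3, edgeR 4.0.16, limma 3.58.1, DESeq2 1.42.0, matplotlib 3.10.9, scipy 1.17.1, pandas 2.3.3 and numpy 2.4.6 in Python 3.11.15. The fit was tested on simulated data.

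The members, classes, partner and marker lists were chosen with earlier results of these data known. In each class the 4 members of highest mean CPM over all libraries are given in full, and in each comparison up to 6 called members a class and up to 4 called genes a partner list of largest absolute log2 difference are named. A partner gene that this rule names is not reported here. Members named outside that rule were chosen after their values were seen. Comparisons were cone against rod at 5 days, each primed group against untreated cells, days 5 and 35 against the primed cells of the same arm, and an F test of change over the days. Alternatives were RLE size factors, no filter, a filter at a mean CPM of 1, DESeq2, voom with sample quality weights, a fit of only the libraries compared, a replicate block, TPM, and each library left out in turn. Exon sequences and lengths came from GENCODE M21 on GRCm38, where 42 of the 44 members have the position given in the deposited tables (not Col20a1 and Col6a5). A repeat was a run of at least 4 in-frame triplets that begin with a glycine codon, and a helix exon had at least 80% of its codons in such runs. Exons of 13 members overlap those of another gene, 3 on the same strand and none over more than 10% of their length. Where the counting ignored strand, reads of such pairs cannot be told apart.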

Additional observations from a re-analysis of the deposited data

Results flagged for a closer look

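In 10 members the cone minus rod difference changed over days 0, 5, 12, 21 and 35, by edgeR's quasi-likelihood F test with Benjamini-Hochberg adjustment. Col7a1, the anchoring fibril chain, had an adjusted p of 8.85e-05. It was 0.000586 for Col25a1 and 0.0082 for Col23a1, which span the membrane, and 0.0453 for the fibril-associated Col22a1. Among basement membrane types it was 0.00047 for Col18a1, 0.00302 for Col4a4 and 0.0163 for Col4a3. Among fibrillar types it was 0.00589 for Col5a1, 0.0129 for Col2a1 and 0.0481 for Col11a1. Rod-primed cells were above cone-primed cells at day 0 for Col18a1, Col2a1 and Col11a1. For Col25a1 and Col23a1 the rod libraries were above all cone libraries at day 35, and for Col7a1 and Col5a1 the cone libraries were above all rod libraries from day 12 on.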

How the results depend on the processing

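With RLE size factors and with a filter at a mean CPM of 1, all 12 counts of called members stayed within 1.5 times. No filter moved 1 count, to 16 for the change over days. DESeq2 moved 2, to 13 for rod primed against untreated cells and 20 for the change over days. Voom gave 23 between cone and rod at day 12, 17 at day 21 and 14 for rod day 5 against primed cells. A fit of only the libraries compared gave 7, 18, 4 and 15 between cone and rod at days 0, 5, 12 and 21, and 14 for rod day 5 against primed cells. On the deposited TPM the cone against rod counts were 0, 2, 4, 1 and 1 at days 0, 5, 12, 21 and 35. TPM gave 0 for rod primed against untreated cells, 3 and 4 for day 5 against primed cells in cone and rod culture, 15 and 4 for day 35, and 1 for the change over days. The cause was not tested. Of 154 called member differences, 32 kept their call on TPM, 15 had a TPM difference of exactly 0, and 6 took the other sign, none called: Col8a1 between cone and rod at day 5 (-1.13), Col24a1 at day 35 (-0.0484), Col16a1 in cone day 5 against primed cells (-0.0377), and Col14a1 (-0.25), Col17a1 (0.12) and Col23a1 (-0.28) in cone day 35 against primed cells.

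With 1 library left out, the cone against rod counts ranged from 3 to 5 at day 0, 7 to 8 at day 5, 10 to 14 at day 12, 5 to 8 at day 21 and 10 to 22 at day 35. They ranged from 0 to 0 for cone primed and 4 to 8 for rod primed against untreated cells, 16 to 19 and 6 to 9 for day 5 and 33 to 36 and 29 to 33 for day 35 against primed cells in cone and rod culture, and 7 to 18 for the change over days. The libraries that moved a count by over 1.5 times were cone day 21 replicate 1 and rod day 21 replicate 3 (5 each), cone day 35 replicate 3 (10), cone day 35 replicate 1 and rod day 35 replicate 1 (12 each), untreated replicates 2 and 3 and rod primed replicate 3 (4 each), rod primed replicate 1 (5), and rod day 12 replicate 1 for the change over days (18).

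The labels do not say whether replicate numbers pair the samples, and correlations with 3 libraries a group cannot settle it. Of 33 same-numbered pairs, 7 had deviations correlated over 0.1 (range -0.226 to 0.513), and in 0 of 11 comparisons did all 3. In total 9 of 33 libraries correlated best with their own number, among them all 3 in rod primed against untreated cells. With a replicate block, counts were 4, 8, 14, 8 and 18 between cone and rod at the 5 days, 0 and 8 for cone and rod primed against untreated cells, 18 and 7 for day 5, 35 and 32 for day 35, and 10 for the change over days. With 3 libraries a group, and members at 0 to a few counts a library at day 0, differences of the low members are limited by depth.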
